A study of Mus musculus with 24 samples.

Results

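Small nucleolar RNAs (snoRNAs) of the box C/D kind that lie outside protein-coding genes, 10 in number, were followed through small RNA libraries of mouse embryonic stem cells (mESC) and of neural progenitor cells (NPC) derived from them. Many box C/D snoRNAs of mammals sit in introns of genes for ribosomal proteins and other proteins. Those described here lie in long noncoding RNA genes or in no annotated gene. The members were the rows annotated as snoRNA in GENCODE M21 that are not named Snora, span under 100 bases, lie inside no protein-coding gene on their strand and lie outside the imprinted snoRNA region of chromosome 12. They also had at least 20 counts summed over all 24 libraries, and Snord49a, Snord49b and Snord65 were set aside. Of the 55335 genes counted, 1507 are annotated as snoRNA, 316 of these met the conditions on position and length, and 10 were members. They were chosen by this summed count, so the totals below are a description. The deeper mESC libraries weigh more in that sum.

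The cell lines belong to a series of mESC lines with CAG repeats of different lengths at the Huntington's disease gene, Htt (also called Hdh). The 4 knock-in lines are heterozygous, with alleles of 20, 50, 92 and 111 CAG repeats by the sample titles (Q20, Q50, Q92 and Q111). The culture notes give 89 repeats in place of 92, and the columns of that line carry the name Q89. A line labelled Htt knockout (KO) and a line labelled wild type (WT) complete the 6 lines. Each line was read as mESC, grown with leukemia inhibitory factor on irradiated CF-1 mouse embryonic fibroblast feeders, and as NPC, made in N2B27 medium and then kept on laminin with FGF and EGF. This gives 12 groups of 2 libraries. The design text calls the 2 libraries of a group biological samples, and no label says whether they came from separate cultures or clones, so p-values measure the spread between these samples only. Each genotype is 1 line as far as the labels say, so a genotype and a line cannot be told apart.

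Box C/D snoRNAs guide the methylation of the 2′-hydroxyl of ribosomal and spliceosomal RNA. Each is bound by fibrillarin (Fbl), Nop56, Nop58 and Snu13, which assemble on a C box near the 5′ end and a D box near the 3′ end, and a stretch upstream of the D box pairs with the target. In mammals most are cut out of introns after splicing, so a noncoding host gene can have its snoRNAs as its main stable product.

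The sequences of the members show what the counts rest on. They are those of the annotated transcripts in GENCODE M21 on GRCm38, written 5′ to 3′ on the annotated strand, with DNA letters. Capitals mark a C box core (TGATGA, its first match within the first 25 bases) and a D box (CTGA, its last match within the last 15 bases). The first set holds the 4 members that carried nearly all counts.
Gm23201: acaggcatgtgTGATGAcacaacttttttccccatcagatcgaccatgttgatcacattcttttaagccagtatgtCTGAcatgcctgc
Snord87: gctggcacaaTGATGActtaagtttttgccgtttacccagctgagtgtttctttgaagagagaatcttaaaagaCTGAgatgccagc
Snord104: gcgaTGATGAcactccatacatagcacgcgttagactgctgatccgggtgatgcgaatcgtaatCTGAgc
Snord93: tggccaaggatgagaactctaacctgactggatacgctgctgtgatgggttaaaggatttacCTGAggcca

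The next 2 sequences are those with the largest changes between the cell types among the 7 members that passed the filter on low counts.
Snord123: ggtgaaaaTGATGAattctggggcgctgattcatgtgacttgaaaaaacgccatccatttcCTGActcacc
Snord7: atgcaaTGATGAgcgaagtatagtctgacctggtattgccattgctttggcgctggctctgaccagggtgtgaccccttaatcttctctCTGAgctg

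Another 2 are shown because each resembles a member with far more counts.
Gm24123: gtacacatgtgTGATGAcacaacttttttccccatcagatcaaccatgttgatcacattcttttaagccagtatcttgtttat
Mir3096: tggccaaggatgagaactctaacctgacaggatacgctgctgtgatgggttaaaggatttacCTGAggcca

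The last 2 come from the repeated snoRNA arrays of Snhg14.
Gm25229: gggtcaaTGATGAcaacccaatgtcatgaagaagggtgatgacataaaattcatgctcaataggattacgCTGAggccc
Gm22131: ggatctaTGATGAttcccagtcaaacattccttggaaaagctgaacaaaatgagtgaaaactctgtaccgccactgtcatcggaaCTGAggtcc

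The label box C/D was checked against these letters. The C box core was found in 8 of 10 members, the exceptions being Snord93 and Mir3096, and the D box in 9 of 10, the exception being Gm24123. Both were found in 7 of 10 members (70.0%). Over all 458 snoRNA rows under 100 bases not named Snora, 63.8% held both, and none of the 42 rows named Snora did. A match is a description of the letters in these windows and no evidence of binding. The ends of the members differ in how far they can pair. Within the first and last 15 bases, Gm23201 has a complementary stretch of 9 bases and Snord87 one of 7 bases. Such a stretch of 5 or more bases was found in 5 of 10 members, against 17.5% of the 458 rows.

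Gm23201 (ENSMUSG00000077565.1) lies at chr2:167064998-167065086 on the plus strand of GRCm38, inside the noncoding gene Zfas1. Snord87 lies at chr1:9942463-9942549 on the minus strand, in an intron of Snhg6. Snord104 lies at chr11:106500993-106501062 on the plus strand and in no other gene of GENCODE M21 on its strand. RefSeq places the long noncoding RNA Gm36220 over that position. Snord93 lies at chr5:23852210-23852280 on the plus strand, in an intron of 2700038G22Rik. Snord123 lies at chr15:32241853-32241923 on the minus strand, in an intron of Snhg18. Snord7, known as a guide for the U6 spliceosomal RNA, lies at chr11:83294304-83294400 on the plus strand in an intron of AA465934. Gm24123 lies at chrX:93164902-93164984 on the plus strand and in no annotated gene. Mir3096, named as a microRNA and given the biotype snoRNA, lies at chr5:23710991-23711061 on the minus strand in AI506816. Gm25229 at chr7:59414091-59414169 and Gm22131 at chr7:59681055-59681148, both on the minus strand, lie in Snhg14, the long host transcript of the Snord115 and Snord116 arrays in the Prader-Willi region.

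Library totals ran from 642384 to 2360434 counts in mESC and from 342022 to 682113 in NPC. The libraries of the Q20 line stood apart after differentiation. The summed level of 14 stem cell markers, among them the miR-290 and miR-302 families, was 331 to 337 CPM (counts relative to the scaled library total) in Q20 NPC, 0 to 2.29 CPM in the other 10 NPC libraries and 975 to 2459 CPM in mESC. The summed level of 12 neural progenitor markers was 146 to 175 CPM in Q20 NPC and 310 to 1055 CPM in the other NPC libraries. Of the stem cell list, Mir294, Nanog, Zfp42 and Dppa5a were at 0 counts in both Q20 NPC libraries. Feeder markers were low throughout, at 0 to 20.8 CPM for 13 genes. In mESC 9 of these were at 0, among them Mir199a-1, Mir214, Col1a1 and Dcn. The others had counts over all mESC libraries, with 49 for Sparc, 14 for Mir143, 12 for Mir145a and 1 for Thy1. In mESC, replicate 1 and replicate 2 libraries of the lines other than Q20 deviated from their group means together, with a correlation across 1766 genes of 0.408 to 0.516 between lines. Htt itself was too low to check the labels, at 0 to 9 counts per library, with 1 to 3 counts in the 4 KO libraries.

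The members held 971215 of 25027120 counts (3.88%), and the snoRNA biotype as a whole held 62.7%. Gm23201 and Snord87 together took 86.1% of the members' counts, and the 4 most counted members took 99.4%. Gm23201 had 487811 counts in all, Snord87 had 348657, Snord104 had 86543 and Snord93 had 42761. Snord123 had 4066 counts, Snord7 had 647 and Gm24123 had 645. The last 3 were near the minimum of 20, with 39 counts for Mir3096, 25 for Gm25229 and 21 for Gm22131. Just below it were Gm26466 with 15 counts and Snord116l14 with 12. The share of a library's counts on the members ran from 2.60% to 5.03% in mESC and from 3.42% to 5.36% in NPC, so the cell types overlapped in it.

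Of the 316 rows that met the conditions on position and length, 282 had no count in any library, which includes snoRNAs of well known hosts. Of the 316 rows, 33 overlap an annotated exon of another gene on the same strand, and 32 of these were at 0. They include 10 rows in Gas5 and 7 in Snhg1. The exception was Gm23201, whose whole span is covered by an annotated exon of Zfas1, while the 2 other such rows in Zfas1 were at 0. An identical copy among the annotated snoRNAs was found for 151 of the rows at 0 and for none of the 34 rows with a count. A further 104 rows at 0 had neither an overlapping exon nor an identical copy among the annotated snoRNAs. Copies in other genes or elsewhere in the genome were not searched. Whether the counting dropped reads that lie in more than 1 gene, or that align to more than 1 place, is not given in the sources used here, and a 0 in these rows cannot be read as absence of the snoRNA. Reads of Gm23201 and of the Zfas1 exon over it cannot be told apart.

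The levels of the 7 members that passed the filter on low counts for the comparison of cell types are plotted by library.

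**Figure D1:**
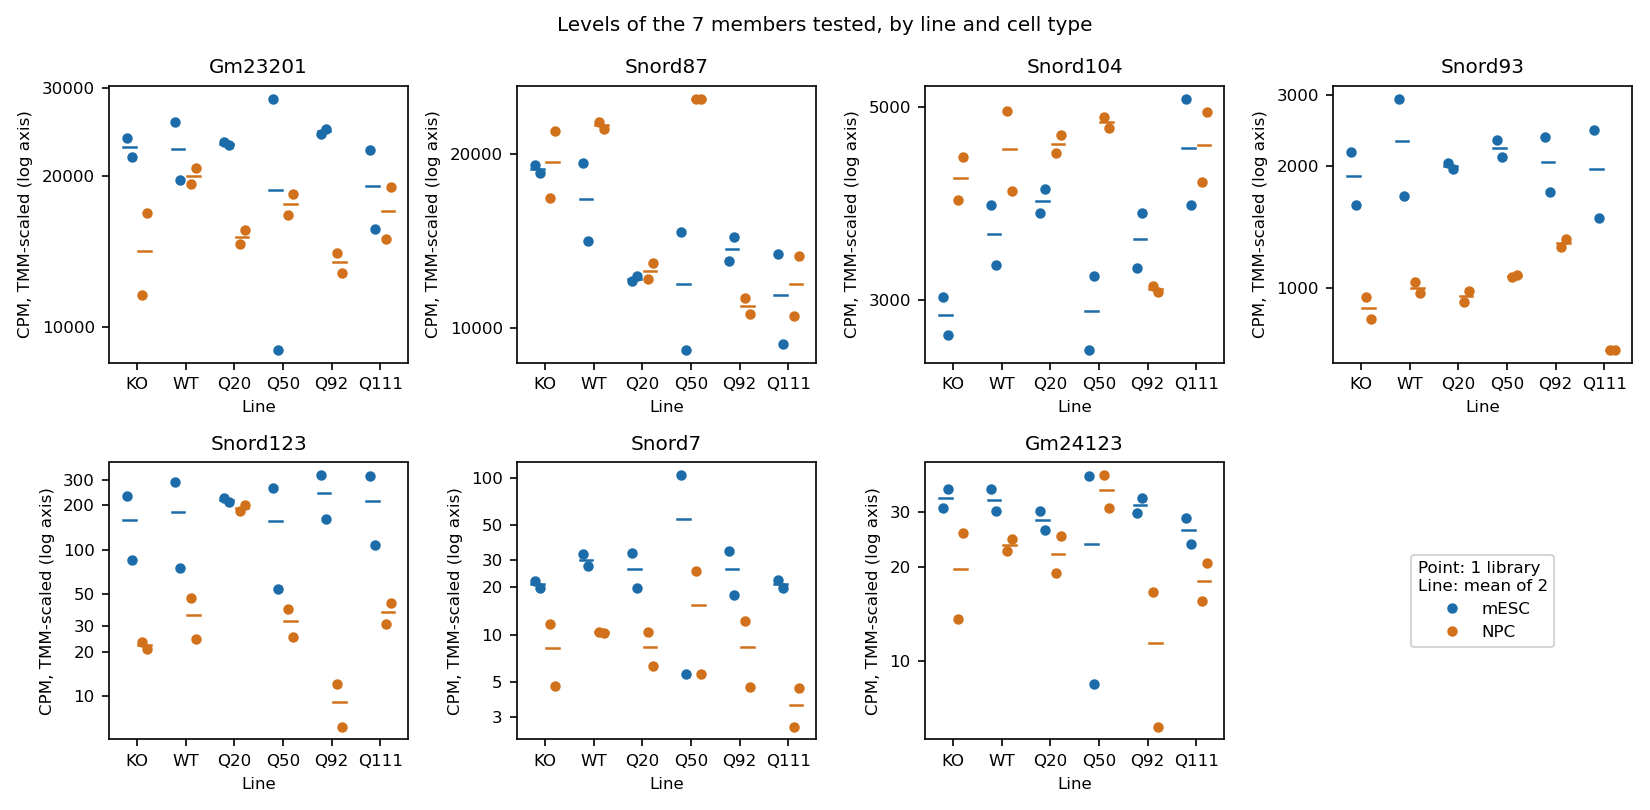
Levels of 7 members in CPM scaled by TMM (vertical log axes, a different range in each panel) by line (horizontal), in mESC (blue) and NPC (orange). Each point is 1 library and each short line the mean of the 2 libraries of a group. All NPC points of Snord93 lie below all its mESC points, and the Q20 NPC points of Snord123 lie at 182 and 200.5 CPM against 6.19 to 46.4 CPM in the other NPC libraries.

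Levels between members were compared per length, as mean CPM per 100 bases. In mESC the order was Gm23201 (24600), Snord87 (16250), Snord104 (5068), Snord93 (2923), Snord123 (275), Gm24123 (35.2) and Snord7 (30.8). In NPC, Snord87 (19570) came before Gm23201 (18260), and both were followed by Snord104 (6092) and Snord93 (1389). Lower down in NPC were Snord123 (77.0), Gm24123 (26.1) and Snord7 (9.35). Neighbours in these orders whose libraries overlapped were Gm23201 with Snord87 and Gm24123 with Snord7 in both cell types, Snord104 with Snord93 in mESC and Snord123 with Gm24123 in NPC.

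Whether the members differ between the 2 cell types was tested over all 24 libraries, with the NPC group means set against the mESC group means, on counts scaled by TMM (edgeR's trimmed mean of M-values, which sets each library's scale from the genes that differ least). Snord93 and Snord123 were lower in NPC by 2.13- and 5.57-fold, and both were lower under each scaling tried. Snord7 was lower by 3.35-fold, also under each scaling. It passed the filter on low counts only through the mESC libraries, where it is high, so its direction was built into its being tested. Gm23201 was also called lower and Snord104 higher, with changes of under 1.4-fold that depended on the scaling. In all, 4 of 7 members tested, Snord7 among them, were called lower and 1 higher, at an adjusted p under 0.05 in edgeR's quasi-likelihood test. Of the 904 genes tested, 58.4% were called, 28.0% lower and 30.4% higher, so calls were common among all genes. The median log2 change was -0.52 over the 7 members, Snord7 included, and -0.02 over all genes tested. In such bulk samples, fewer cells of a type and less RNA per cell cannot be told apart.

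Snord93, in 2700038G22Rik, ran from 1491 to 2945 CPM in mESC (median 2078) and from 702 to 1324 CPM in NPC (median 975). All 12 NPC libraries lay below all 12 mESC libraries. How many of all genes tested separate in this way was not counted, and 58.4% of them were called between the cell types. The log2 change was -1.09 ± 0.13 (SE, by edgeR, with an adjusted p of 1.65e-07). The change was -0.44 when libraries were scaled by their snoRNA total, the setting that moved it most toward 0, and it was still called (edgeR adjusted p = 8.94e-04). Its host was barely covered, with 23 counts in all mESC libraries together and 3 in NPC.

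Snord123, in Snhg18, ran from 53.5 to 322 CPM in mESC (median 219) and from 6.19 to 200.5 CPM in NPC (median 28.2). All NPC libraries but those of Q20, 10 in number, lay below every mESC library, again without a count of such genes over all tested. The log2 change was -2.48 ± 0.30 (SE, by edgeR, with an adjusted p of 2.71e-07), and it was -3.12 without the Q20 line. In mESC, Snord123 also differed between replicates. The replicate 1 library was 2.00 to 4.88 times the replicate 2 library in the 5 lines other than Q20 and 1.07 times in Q20. With replicate 1 libraries alone the log2 change was -2.87, and with replicate 2 libraries alone it was -1.65, both called. Snhg18 itself had 2 counts over all 24 libraries.

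Snord7 was a low member, with 4 to 230 counts per library in mESC and 1 to 11 in NPC. Its level ran from 5.64 to 104 CPM in mESC (median 22.2) and from 2.60 to 25.4 CPM in NPC (median 8.27). Both mESC extremes were libraries of Q50, with 230 counts in replicate 1 and 4 in replicate 2. The cell types overlapped, and the mean was lower in NPC in 6 of 6 lines. The log2 change was -1.75 ± 0.36 (SE, by edgeR, with an adjusted p of 2.48e-04), and among the fits that leave out 1 library it came nearest to 0, at -1.19, without Q50 mESC replicate 1. With the snoRNA total it was -1.09 and still called (adjusted p = 0.0144). Snord7 did not pass the filter on low counts in NPC alone, so it entered this test through the mESC libraries, where it is high, and a lower value in NPC was built into its being tested. In the WT line alone, both Snord7 and Snord93 kept their direction and were no longer called, with log2 changes of -1.39 and -1.06.

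Gm23201, the most counted member, ran from 9009 to 28600 CPM in mESC (median 23240) and from 11590 to 20790 CPM in NPC (median 16190). The lowest and the highest mESC libraries were replicate 2 and replicate 1 of Q50. The line means were lower in NPC in 6 of 6 lines, and the libraries overlapped. The log2 change was -0.44 ± 0.14 (SE, by edgeR, with an adjusted p of 0.0106). Scaling by library totals gave -0.09 (adjusted p = 0.563), and scaling by the snoRNA total gave 0.20 (adjusted p = 0.102), so its direction depended on the scaling. It was -0.80 in replicate 1 libraries alone (adjusted p = 4.26e-04) and -0.14 in replicate 2 libraries alone (adjusted p = 0.720). Zfas1 had 192 counts in mESC and 51 in NPC, with a log2 change of -0.74 ± 0.43 (SE, by edgeR, with an adjusted p of 0.144).

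Snord104 and Snord87 leaned the other way. Snord104 ran from 2630 to 5115 CPM in mESC (median 3534) and from 3066 to 4956 CPM in NPC (median 4405), higher in NPC in 5 of 6 lines, with a log2 change of 0.27 ± 0.10 (SE, by edgeR, with an adjusted p of 0.0305). That call was lost without the Q20 line (0.14, adjusted p = 0.402) and on leaving out any of 11 single libraries, the largest loss being without KO mESC replicate 2 (0.12, adjusted p = 0.388). Snord87 ran from 9177 to 19340 CPM in mESC (median 13810) and from 10500 to 24950 CPM in NPC (median 15050), with a log2 change of 0.22 ± 0.11 (SE, by edgeR, with an adjusted p of 0.0841). Snord87 was called without replicate 1 of WT (adjusted p = 0.0476), Q50 (0.0133) or Q111 mESC (0.0339). Scaling by library totals gave log2 changes of 0.61 for Snord104 and 0.56 for Snord87, both called. With no filter on low counts, both were below 0, at -0.30 and -0.37, and neither was called. The median of all genes tested shifted by 0.34 with library totals, by 0.62 with the snoRNA total and by -0.56 with no filter. A change smaller than these shifts has no settled sign here, and the members' order is read in its place.

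**Figure D2:**
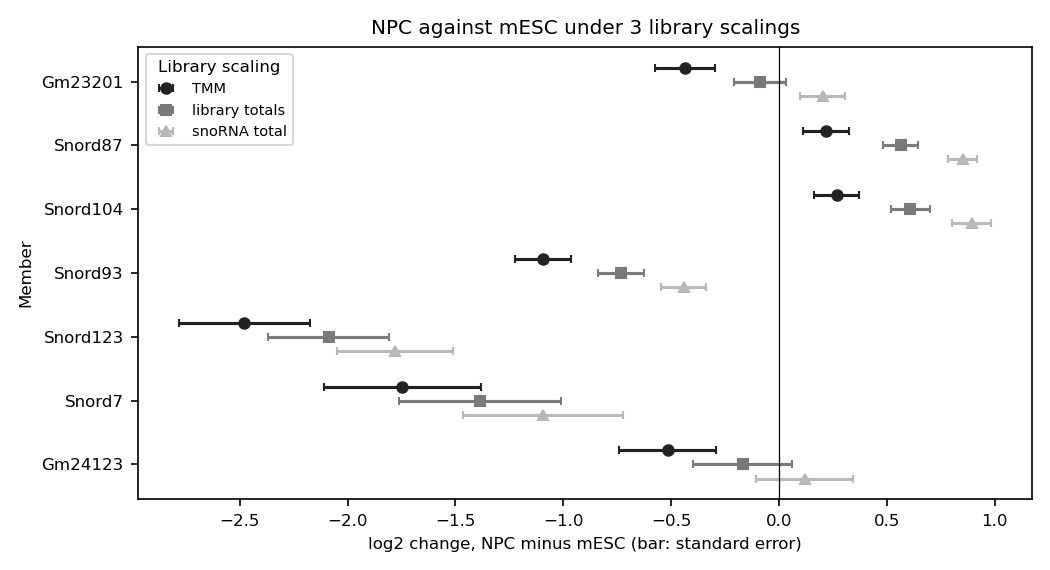
The log2 change of NPC minus mESC (horizontal axis) for 7 members (vertical axis) under 3 scalings of the libraries, with standard errors as bars. Snord93, Snord123 and Snord7 lie below 0 under all 3, Snord87 and Snord104 above 0 under all 3, and Gm23201 and Gm24123 change sides.

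A count ratio within a library needs no scaling, so the ratio of Gm23201 to Snord87 counts was computed for every library, a comparison chosen after seeing the data. It ran from 0.982 to 1.95 in mESC (median 1.68) and from 0.673 to 1.43 in NPC (median 1.07). The mean log2 ratio was lower in NPC in 6 of 6 lines, by -0.63 ± 0.24 (SD over 6 lines). The exact two-sided sign-flip permutation test gave p = 0.0313, the smallest that 6 lines allow, or 0.0469 adjusted over the 3 tests of this ratio. In NPC the lines differed in the ratio (exact permutation p = 3.85e-04, adjusted 0.00115). The adjustment does not cover the choice of this pair, and Snord87 was itself called among the NPC lines. These p-values therefore describe the pair chosen and are no independent support. The 2 libraries of each NPC line lay close together, at 0.691 and 0.768 for KO, 0.849 and 0.939 for WT, 1.21 and 1.21 for Q20, 0.673 and 0.739 for Q50, 1.25 and 1.21 for Q92 and 1.43 and 1.43 for Q111. KO, Q50 and WT were below 1 and Q20, Q92 and Q111 above. In mESC the lines were not told apart (exact permutation p = 0.283), and the Q50 libraries were at 1.95 and 0.982. The libraries of the other mESC lines lay closer together. In KO they were at 1.245 and 1.183 and in WT at 1.328 and 1.387. In Q20 they were at 1.943 and 1.876, in Q92 at 1.861 and 1.729 and in Q111 at 1.682 and 1.678. Leaving out either Q50 library takes the Q50 pair, the furthest apart in mESC, out of the comparison. Such a test cannot settle whether the mESC lines differ.

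**Figure D3:**
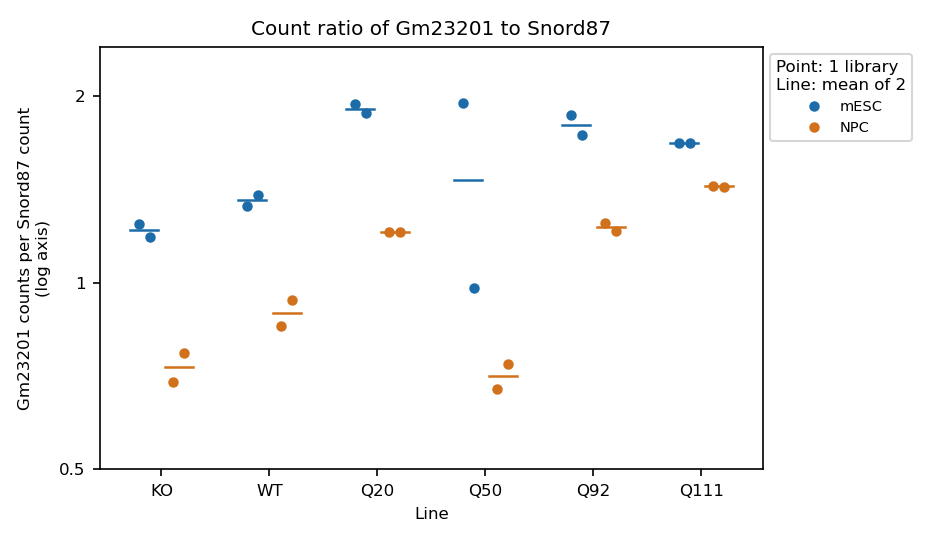
Counts of Gm23201 per count of Snord87 in each library (vertical log axis) by line (horizontal), in mESC (blue) and NPC (orange). Points are single libraries and short lines are means of 2. In every line the NPC mean is below the mESC mean, and KO, WT and Q50 NPC lie below 1.

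The closest relatives within the set were Gm24123 with Gm23201 and Mir3096 with Snord93. Gm24123 is 82.0% identical to Gm23201 over 89 aligned positions, shares a stretch of 36 bases with it and lacks its D box end. Gm24123 had 1.33 counts per 1000 counts of Gm23201 in mESC and 1.30 in NPC, pooled over libraries. Its level was 8.45 to 38.9 CPM in mESC and 6.19 to 39.3 CPM in NPC, with a log2 change of -0.52 ± 0.22 (SE, by edgeR, with an adjusted p of 0.0525). It was near the threshold and was called with DESeq2's size factors (adjusted p = 0.0497), without the Q20 line (0.0332), in replicate 1 libraries alone (0.0253) and with no filter (3.32e-04). It was also called on leaving out any of 5 single libraries, with the lowest adjusted p of 0.00694 without Q50 mESC replicate 2, while its sign depended on the scaling. Mir3096 differs from Snord93 by 1 base, T29A, counted from the 5′ end with the base of Snord93 first. Mir3096 had 37 counts in mESC and 2 in NPC, which is 1.01 and 0.319 per 1000 counts of Snord93. It did not pass the filter, and with no filter it was called lower in NPC, with a log2 change of -3.35 ± 0.81 (SE, adjusted p = 7.88e-04). In neither pair is a stretch of 50 bases, the read length, shared. Shorter reads and reads with a wrong base could still be assigned to the other gene, so the levels of Gm24123 and Mir3096 are uncertain, and how much of them came from the larger member was not tested.

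The Snhg14 members were at the limit of detection. Of 208 eligible rows in Snhg14, 18 had any count. Gm25229 had 5 counts in each Q20 NPC library, 5 and 0 in the Q50 NPC libraries and none in the other 8 NPC libraries, against 0 to 2 per library in mESC. Gm22131 had 0 to 4 counts in NPC libraries, 16 in all, and 0 to 2 in mESC libraries, 5 in all. These counts lie around the 3 counts that a count of 0 allows, which correspond to 4.40 to 8.77 CPM in NPC and 1.27 to 4.67 CPM in mESC, and neither passed the filter on low counts. With no filter, Gm25229 was called among the 6 lines in NPC (adjusted p = 0.0336) and on the repeat slope in NPC (-0.53 per 10 repeats, adjusted p = 0.0303), on the 15 counts described. Snhg14 had 2 to 15 counts in mESC libraries, 5 and 7 in Q20 NPC and at most 1 in each other NPC library. Gm25229 shares 68.3% and Gm22131 shares 81.3% of its 20-base windows with other snoRNA rows, which makes both uncertain.

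Loss of Htt was examined by comparing the KO with the WT line within each cell type. In mESC, 0 of 7 members tested were called in edgeR, and 0 of 1766 genes (0.0%) were, with 0 members and 18 genes at an unadjusted p under 0.05. DESeq2 called no member either. The members' log2 changes ran from -0.45 for Snord7 to 0.23 for Snord87, with standard errors of 0.39 to 0.82. On simulated counts with log2 changes of 2, KO against WT recovered 45.8% of the changed genes in mESC and 89.8% in NPC. A member not called in mESC can therefore not be read as unchanged. In NPC, 0 of 6 members tested were called in edgeR against 1.36% of 441 genes, with 1 member at an unadjusted p under 0.05. This member was Gm23201, at 11590 and 16870 CPM in the KO libraries and 19330 and 20790 CPM in the WT libraries. Its KO libraries lay below its WT libraries, as did those of Snord87, Snord93 and Snord123. How many of all genes tested show this was not counted. The log2 change of Gm23201 was -0.43 ± 0.13 (SE, by edgeR, with an adjusted p of 0.108). DESeq2 called it at -0.51 (adjusted p = 0.0258), as did edgeR without KO NPC replicate 2 at -0.63 (adjusted p = 0.00983). The change was smaller without KO NPC replicate 1 (-0.25, adjusted p = 0.541), with library totals (-0.22, adjusted p = 0.566) and with the snoRNA total (-0.12, adjusted p = 0.492). As shares of all counts the groups overlapped, at 1.54% and 2.05% in KO and 1.90% and 2.30% in WT.

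Differences among all 6 lines were tested next. In mESC none of 7 members was called, against 0.0566% of 1766 genes, and no member had an unadjusted p under 0.05 in edgeR. DESeq2 called none of them and 8 genes, and edgeR with the replicate number as a block called none of them and 29 genes. In NPC, 3 of 6 members were called, Snord87, Snord93 and Snord123, against 37.2% of 441 genes. Gm23201 was also called without KO NPC replicate 2 (adjusted p = 0.0155) or without the Q20 line (0.0464), and Snord104 without WT NPC replicate 1 (0.0322). Among 45 snoRNA rows under 100 bases inside coding genes, 25 were called in the same test (55.6%). Whether the differences among lines themselves differ between cell types was tested with the 24 libraries, and 0 of 7 members were called, against 2.1% of 904 genes, with 2 members and 95 genes at an unadjusted p under 0.05. DESeq2 called no member in this test. Without Q50 mESC replicate 1, Gm23201 (adjusted p = 0.0346) and Snord123 (adjusted p = 0.0400) were called.

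Snord87 split the NPC lines. Its KO libraries were at 16780 and 21960 CPM, its WT libraries at 22760 and 22140 CPM and its Q50 libraries at 24860 and 24950 CPM. The Q20 libraries were at 12150 and 12970 CPM, the Q92 libraries at 11300 and 10600 CPM and the Q111 libraries at 10500 and 13320 CPM. The first 3 lines did not overlap with the last 3. This grouping was read from the values themselves, and how many of all genes tested show such a split was not counted. Against WT, Snord87 was lower in Q20, with a log2 change of -0.64 ± 0.11 (SE, by edgeR, with an adjusted p of 5.57e-04). It was also lower in Q92, with a log2 change of -0.73 ± 0.11 (edgeR adjusted p = 5.82e-04), and in Q111, with -0.80 ± 0.11 (edgeR adjusted p = 2.06e-04). These comparisons with WT were added after seeing the data, share the same 2 WT libraries and had 12.7%, 18.8% and 10.9% of all 441 genes called. The test over 6 lines gave Snord87 an edgeR adjusted p of 6.20e-06, and 5.39e-04 without Q20. Snhg6 had 0 to 3 counts per NPC library, too few to compare.

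Snord123 set the Q20 NPC apart. It had 105 and 128 counts there, or 182 and 200.5 CPM, and 4 to 31 counts in the other NPC libraries. Against WT, at 46.4 and 24.6 CPM, it was higher in Q20 with a log2 change of 2.59 ± 0.35 (SE, by edgeR, with an adjusted p of 3.99e-05). The Q20 NPC values lay within the mESC range of Snord123, and the same 2 libraries had the raised stem cell marker level given above. The part of that marker level in the result was not tested. Snord123 was at 12.1 and 6.19 CPM in Q92, with a log2 change from WT of -1.65 ± 0.46 (SE, by edgeR, with an adjusted p of 0.0228). The Q92 call rests on 8 and 4 counts and was lost with library totals (-1.42, adjusted p = 0.0579) and without WT NPC replicate 1 (-1.13) or either Q92 replicate (-2.20, adjusted p = 0.0596, and -1.26, adjusted p = 0.194). Over 6 lines the adjusted p of Snord123 was 1.20e-06, and it was 0.0671 without Q20.

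Snord93 was highest in Q92 NPC, at 1266 and 1324 CPM, and lowest in Q111 NPC, at 704 and 702 CPM. The other 4 NPC lines lay between, from 838 to 1078 CPM, so neither Q92 nor Q111 overlapped with them. That too was read from the values, without a count over all genes. Against WT, at 1035 and 970 CPM, the log2 change in Q92 was 0.67 ± 0.17 (SE, by edgeR, with an adjusted p of 0.0120), and in Q111 it was -0.38 ± 0.17 (SE, by edgeR, with an adjusted p of 0.166). Leaving out either Q92 library ended the Q92 call (adjusted p = 0.0684 and 0.0975). With no filter the change in Q92 was 0.31 and was not called. The test over 6 lines gave Snord93 an edgeR adjusted p of 0.00209, and 0.134 with no filter, where it was not called. In Q50 against WT, none of 6 members was called, against 6.58% of genes, with no member and 70 genes at an unadjusted p under 0.05. DESeq2 called no member there, and edgeR with library totals called Gm23201 lower (-0.52, adjusted p = 0.0454). In Q92 against WT, DESeq2 called 5 members and 66 genes. Among them were Gm23201 (-0.44, adjusted p = 0.0427) and Snord104 (-0.39, adjusted p = 0.03815), both lower. With DESeq2's size factors, edgeR also called Gm23201 there (adjusted p = 0.0383). In Q20 against WT, edgeR with the snoRNA total called Snord104 higher (0.41, adjusted p = 0.02935).

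Dependence on repeat length was a slope fitted in each cell type to its 8 knock-in libraries, given as log2 change per 10 CAG repeats. In mESC, 0 of 7 members and 0 of 1487 genes (0.0%) were called in edgeR, with 0 members and 48 genes at an unadjusted p under 0.05, and DESeq2 called no member. In NPC, 0 of 6 members were called in edgeR, against 6.45% of 403 genes, with 1 member at an unadjusted p under 0.05, and DESeq2 called none. That member was Snord123, whose slope was -0.31 ± 0.08 (SE, by edgeR, with an adjusted p of 0.0528). Without Q20 the slope was 0.02 (adjusted p = 0.942), so it rested on the Q20 line. With the Q20 line and without Q50 NPC replicate 2 it was called (-0.32, adjusted p = 0.0370). Without Q20, Snord87 was called, with a slope of -0.15 ± 0.02 (adjusted p = 0.00856), as 1 of 15 genes called in that fit. This slope rested on the Q50 line, at 24860 and 24950 CPM, against 10500 to 13320 CPM in Q92 and Q111. With Q20 included the Snord87 slope was -0.045 ± 0.033 (SE, edgeR adjusted p = 0.561). Each repeat length is 1 line, so repeat length and line cannot be told apart.

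The proteins and hosts of these RNAs were read from the same libraries, where messenger RNA fragments are few. Of 15 listed box C/D particle proteins and assembly factors, 14 were in the table and 1 passed the filter. It was Nop58, a core protein of the particle and itself a host of coding-gene snoRNAs, with 257 counts in mESC and 26 in NPC and a log2 change of -2.13 ± 0.35 (SE, by edgeR, with an adjusted p of 1.29e-05). With so few NPC counts, Nop58 was tested on its mESC counts, where it is high. A lower value in NPC was therefore favoured by its being tested. Of 21 listed noncoding snoRNA hosts, 18 were in the table, 6 were tested, 2 were called lower in NPC and none higher, against 28.0% and 30.4% of all genes tested. Snhg5, a host of box C/D snoRNAs, had a log2 change of -1.79 ± 0.26 (SE, by edgeR, with an adjusted p of 3.26e-06). Dancr, another noncoding transcript, had a log2 change of -0.996 ± 0.297 (SE, by edgeR, with an adjusted p of 0.00637). Gas5, Snhg1, Snhg8 and Zfas1 had log2 changes of -0.43, -0.36, -0.12 and -0.74 and were not called. The median over the 6 tested hosts was -0.59, against -0.02 over all genes. Some tested hosts had few NPC counts, such as Dancr with 42 and Zfas1 with 51 over all NPC libraries. Their passing the filter may have rested on mESC, which favours lower values in NPC. The tally and the median describe the tested hosts only.

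Among 46 snoRNA rows under 100 bases inside coding genes that were tested, 12 were called higher in NPC and 25 lower, and their median log2 change was -0.40. The difference between this median and the median of -0.52 over the 7 members was not tested.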

How the data were processed

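Small RNA was read as single reads of 50 bases on an Illumina HiSeq, per the labels' protocols. The authors deposited raw counts, 1 table of all genes by 24 libraries. The submitters' processing notes name CASAVA 1.8, STAR, HTSeq and GRCm38.p6. The annotation release, adapter trimming, strand setting and treatment of multiple alignments are not given in the sources used here. Columns were assigned by the sample descriptions, and the Q89 columns were assigned to the samples titled Q92. Symbols, biotypes, positions and sequences came from GENCODE M21, which left 181 rows unmatched.

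Counts were tested with edgeR 4.0.16 in R 4.3.3 (glmQLFit, glmQLFTest, TMM, filterByExpr at min.count 10 and min.total.count 15), on all genes, and p-values were adjusted over all tested genes by Benjamini-Hochberg. Tests within a cell type used its 12 libraries, and slopes its 8 knock-in libraries. Alternatives were DESeq2 1.42.0 and its size factors, library totals, the snoRNA total, no filter, a replicate block, subsets of lines and each library left out. The scripts were tested on simulated data. Members and lists were chosen with earlier results of these data known. All 10 members are named; of the lists, the tested genes are named. Precision is limited by counting error in the low members, and depth is given as library totals.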

Additional observations from a re-analysis of the deposited data

How the results depend on the processing

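Of all genes, 528 were called between the cell types in the main fit, 509 with library totals and 559 with the snoRNA total. With no filter 2024 were called, in the wild-type libraries alone 123 and without the Q20 line 486. Members tested were 10 with no filter and 7 in those other settings. The count of members called higher in NPC was 2 with library totals and 2 with the snoRNA total. It was 0 with no filter, in the wild-type libraries alone, without the Q20 line, in replicate 1 libraries alone and in replicate 2 libraries alone, and 0 to 2 on leaving out single libraries. The count called lower was 1 in the wild-type libraries alone, 3 to 6 under the other alternatives and 4 to 5 on leaving out single libraries. For KO against WT in NPC, DESeq2 called 1 member, and leaving out single libraries gave 0 to 1. For the slope in NPC, 1 member was called with library totals, 1 with the snoRNA total, 2 with no filter and 1 without Q20, and leaving out single libraries gave 0 to 1. For the test of line by cell type, 1 member was called with no filter and 1 with the replicate block, and leaving out single libraries gave 0 to 2. Changes of sign between cell types were Gm23201 (0.20) and Gm24123 (0.12) with the snoRNA total, Snord104 (-0.30) and Snord87 (-0.37) with no filter, and Snord87 (-0.047) in replicate 1 libraries alone. The NPC slope of Snord123 was 0.021 without Q20. The cause of these shifts was not tested. For line by cell type, Snord123 had an adjusted p of 0.302 without and 0.00495 with the replicate block, and the block also called Gm24123 lower in NPC (0.0346). Deviations correlated over 0.1 in 10 of 15 pairs of lines in mESC (all pairs without Q20) and in 4 of 15 in NPC. As not every pair did, the numbers were not taken as pairs, although replicates 1 and 2 of 5 mESC lines differ along a shared axis. With no filter, 3 members were still called among the 6 NPC lines, with Gm25229 in place of Snord93, and 114 genes were. Over all genes, the NPC slope called 20 with library totals, 23 with the snoRNA total, 50 with no filter and 15 without Q20. Line by cell type called 19 genes with no filter and 27 with the replicate block. For KO against WT in NPC, DESeq2 called 24 genes. Depth limits the 3 members under 40 counts, and Snord7 and Gm24123 in NPC.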
